A study of Mus musculus with 2 samples.

Results

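The 10 genes described here encode proteins of axons: the neurofilament-type proteins Nefl, Nefm, Nefh, Prph and Ina, the growth-associated proteins Stmn2 and Gap43, the neuronal tubulin Tubb3, the RNA-binding protein Elavl4 and the ubiquitin hydrolase Uchl1. They were taken by name from 29875 genes on the array and are read by 13 of its 39429 probes. The set was drawn up with their ratios in view, because Nefl, Stmn2 and Prph were lower in mutant than in control ureters on both arrays. The contrast between genotypes is therefore described for these genes and not tested. 8 of the 10 were lower in mutant ureters on both arrays, Nefl, Stmn2 and Prph by the most, and 2, Uchl1 and Nefh, were higher on both.

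Ureters were dissected from mouse embryos of the NMRI strain at E15.5 and kept on transwell membranes for 6 days. The mutant, Fgfr1/2cDKO, carried Tbx18(cre/+) together with Fgfr1(fl/fl) and also Fgfr2(fl/fl). The control carried Fgfr1(fl/?) together with Fgfr2(fl/?), with no Cre listed and the second allele of each receptor gene left unnamed. Cre stood at the Tbx18 locus, a gene active in the mesenchyme around the developing ureter, so Cre with the single Tbx18 copy and the loss of the receptors cannot be told apart. On each of 2 arrays, 1 mutant and 1 control RNA (150 ng each) were hybridised in different dyes. The mutant RNA was in Cy5 on array 1, where both RNAs are labelled male, and in Cy3 on array 2, where both are labelled female, so sex label, replicate and dye orientation cannot be told apart. How many embryos gave an RNA, and whether the replicates came from separate litters, is not stated in the labels. The p-values below thus speak for the spread among these RNAs alone, and that spread may be of technical origin.

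Values are normalised intensities, a relative brightness that can be compared between the 4 RNAs for 1 probe but not between probes. Ratios are mutant over control within an array, on the log2 scale, and errors are SDs over the 2 arrays. A gene is called changed where its limma adjusted p over 21981 genes tested is below 0.05. By that rule 842 genes (3.83%) changed, of which 450 (2.05%) were lower and 392 (1.78%) higher in mutant ureters. For genes other than the 10, fell and rose mean called lower and called higher. The median log2 ratio of all genes tested was -0.02. The brightest tested probe of Fgfr1 gave -0.33 ± 0.15 (SD over 2 arrays, limma adjusted p = 0.134) on that scale. That of Fgfr2 gave 0.56 ± 0.02 (limma adjusted p = 0.0307) and that of Tbx18 0.19 ± 0.06 (limma adjusted p = 0.320). Averaged over all tested probes of a gene, Fgfr1 stood at -0.42 (limma adjusted p = 0.0504) and Fgfr2 at 0.66 (limma adjusted p = 0.0148). The labels do not say whether the receptor probes lie in the floxed exons, so these values do not check the deletion. All 10 urothelial and all 8 smooth muscle markers listed were well above background in at least 1 genotype.

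Neurons fill their axons with neurofilaments, heteropolymers of light, medium and heavy chains to which peripherin and alpha-internexin can be added, and which set axon calibre. Microtubules run beside them, with the neuron-specific beta-tubulin Tubb3 as a subunit and stathmins such as Stmn2 as regulators of their turnover. The ureter wall is supplied by autonomic and sensory fibres, whose cell bodies lie in ganglia, some of them near the bladder and others further away. Levels in bulk RNA do not show which cells held a transcript, and fewer such cells and less RNA per cell cannot be told apart. The share of nerve cell bodies in these cultures was not tested.

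All 10 genes had a probe well above background in every RNA. The probes of the 3 genes that defined the set and of Uchl1, the gene furthest in the other direction, are shown by their first 30 bases, 5′ to 3′ as the array carries them. All are in lower case, since no base is singled out.
Nefl: gactttcaatgtgtgctatgaatttcctcc
Stmn2: tcttcttgtatgtcattgtgagcaagctgt
Prph: acagagtcccagaaggaacagcacagtgac
Uchl1: ccagtgtcgggtagatgacaaagtgaattt
Their positions in mm9, the build in the file headers, are chr14:68705638-68705698 on the plus strand for Nefl and chr3:8561545-8561604 on the plus strand for Stmn2. The Prph probe lies at chr15:98889042-98889101 and that of Uchl1 at chr5:67073886-67074977, both on the plus strand. The Uchl1 interval spans 1092 bases for a probe of 60, so its alignment to the genome is split. Exon and UTR annotation in mm9 was not used here. No probe of the 10 genes shares 25 bases with another probe on the array.

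The light and medium neurofilament chains were both lower in mutant ureters, the light chain by far more. Nefl, the light chain on which the other chains assemble, read 523 and 586 on arrays 1 and 2 in Fgfr1/2cDKO RNA, against 1126 and 1279 in control RNA. Both mutant values lay below both control values, and the log2 ratios of -1.11 and -1.13 were nearly equal. The mean of -1.12 ± 0.01 (SD, n = 2) is a level 2.17-fold lower in mutant ureters, the largest difference among the 10 genes, and 0.191% of genes tested stood lower. Nefm, the medium chain, read 198 and 266 in Fgfr1/2cDKO RNA, against 231 and 375 in control RNA. The 2 groups overlapped, because the control of array 1 was dimmer than the mutant of array 2, although each array had the mutant below its control. The log2 ratios were -0.22 and -0.50, with a mean of -0.36 ± 0.20 (SD, n = 2), or 1.28-fold lower. Nefm was also the least even probe: its 4 spots on array 1 ran from -0.58 to 0.33, against -0.58 to -0.45 on array 2.

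The heavy chain went the other way. Nefh read 206 and 239.8 in Fgfr1/2cDKO RNA, against 169.8 and 184 in control RNA. The groups did not overlap, and the log2 ratios of 0.28 and 0.38 gave a mean of 0.33 ± 0.08 (SD, n = 2), 1.26-fold higher in mutant ureters. Nefh did not pass the threshold of the fit over all genes, and neither did Nefm, Ina, Tubb3 and Elavl4 among the lower genes. Its second probe, close to background, read 107 and 101 in Fgfr1/2cDKO RNA and 105 and 93.3 in control RNA. That probe was well above background in the control RNA of array 1 alone, and its log2 ratios of 0.02 and 0.12 were not tested.

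Of the other intermediate filament proteins, peripherin differed more than alpha-internexin. Prph, the filament protein typical of peripheral and autonomic neurons, read 278 and 300.1 in Fgfr1/2cDKO RNA, against 489 and 505 in control RNA. The groups were well apart, and the log2 ratios were -0.82 and -0.75, with a mean of -0.78 ± 0.05 (SD, n = 2), or 1.72-fold lower. Ina, alpha-internexin, read 1241 and 1018 in Fgfr1/2cDKO RNA, against 1492 and 1276 in control RNA. Its groups came close but did not overlap, and the mean log2 ratio was -0.30 ± 0.04 (SD, n = 2), or 1.23-fold lower. A second Ina probe gave log2 ratios of -0.35 and -0.17, the same side of 0 on both arrays.

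Of the genes of growing axons, Stmn2 differed the most. Stmn2, a stathmin that binds tubulin in growth cones, read 633 and 621 in Fgfr1/2cDKO RNA, against 1076 and 1472 in control RNA. The mutant RNAs were nearly equal, the control RNAs were not, and the groups were far apart. The log2 ratios were -0.76 and -1.24, the widest gap between arrays among the 10 genes, with a mean of -1.004 ± 0.34 (SD, n = 2), or 2.01-fold lower. Gap43, a membrane protein of growth cones, read 1363 and 1486 in Fgfr1/2cDKO RNA, against 1795 and 2265 in control RNA. Its groups did not overlap, and the mean log2 ratio was -0.50 ± 0.15 (SD, n = 2), or 1.42-fold lower.

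**Figure D1:**
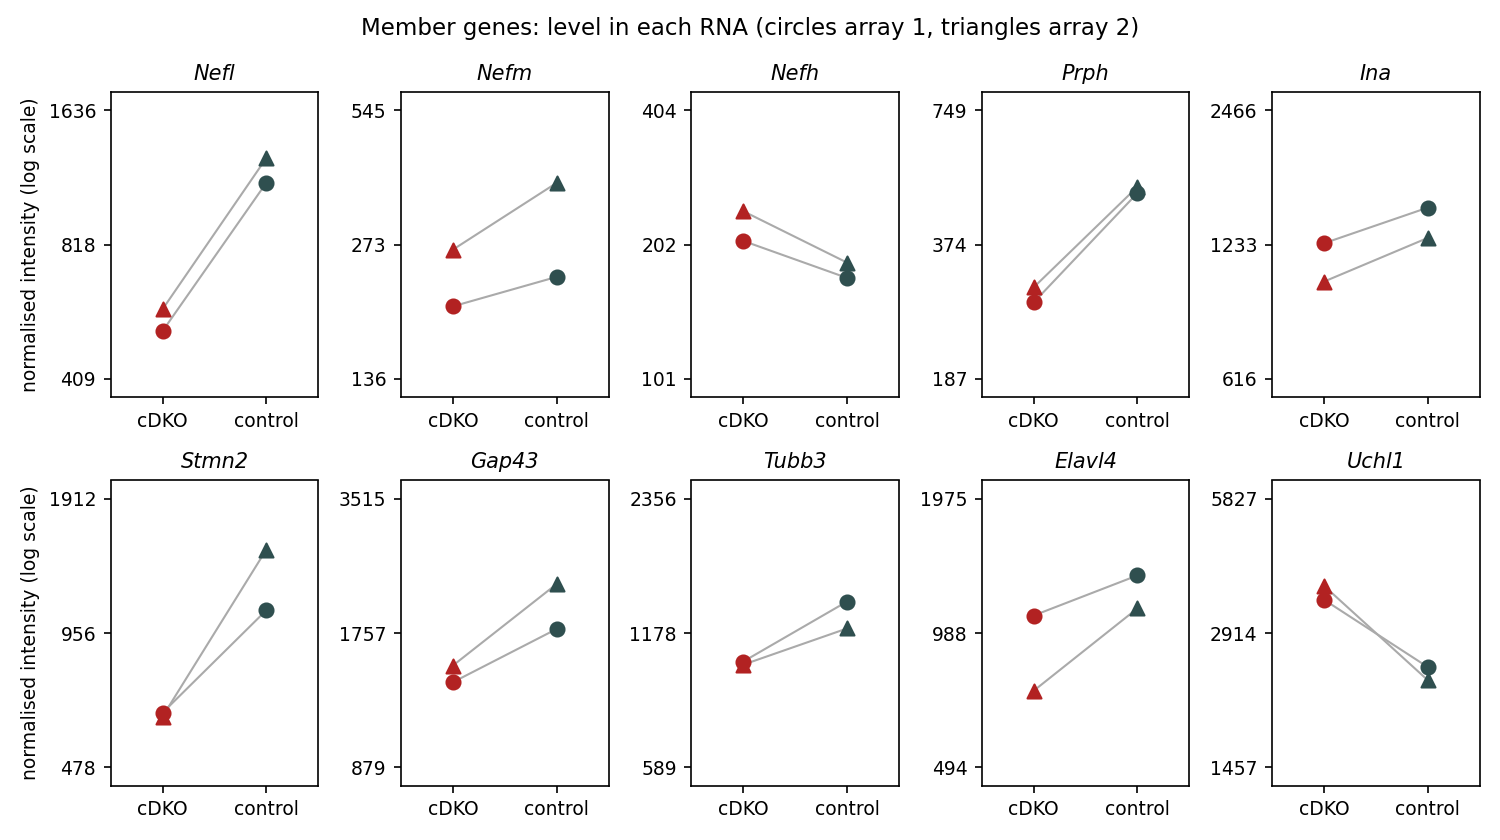
Normalised intensity (log axis) of each of the 10 genes in the Fgfr1/2cDKO and control RNAs, with 1 point per RNA and lines joining the RNAs of an array. Nefl, Stmn2 and Prph stand clearly lower in mutant RNA, Uchl1 and Nefh stand higher, and only the groups of Nefm overlap.

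The 2 remaining lower genes are broad neuronal markers. Tubb3, the neuronal beta-tubulin, read 1017 and 1001 in Fgfr1/2cDKO RNA, against 1387 and 1207 in control RNA. The groups did not overlap, and the mean log2 ratio was -0.36 ± 0.13 (SD, n = 2), or 1.28-fold lower. Elavl4, the HuD protein that binds and stabilises neuronal mRNAs, read 1082 and 733 in Fgfr1/2cDKO RNA, against 1330.5 and 1122 in control RNA. Its highest mutant value was just below its lowest control value, and the log2 ratios of -0.30 and -0.61 gave a mean of -0.46 ± 0.22 (SD, n = 2), or 1.37-fold lower. A second Elavl4 probe gave -0.31 and -0.24, so the larger difference on array 2 was not seen with it.

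Uchl1, the deubiquitinating enzyme known as PGP9.5 and used to stain nerve fibres, was higher in mutant ureters. It read 3461 and 3718 in Fgfr1/2cDKO RNA, against 2444 and 2283 in control RNA. Both mutant values were far above both control values. The log2 ratios were 0.50 and 0.70, with a mean of 0.60 ± 0.14 (SD, n = 2), 1.52-fold higher in mutant ureters, and 99.2% of genes tested stood lower. Uchl1 is known to be made outside neurons too, and the array does not show which cells held the transcript.

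**Figure D2:**
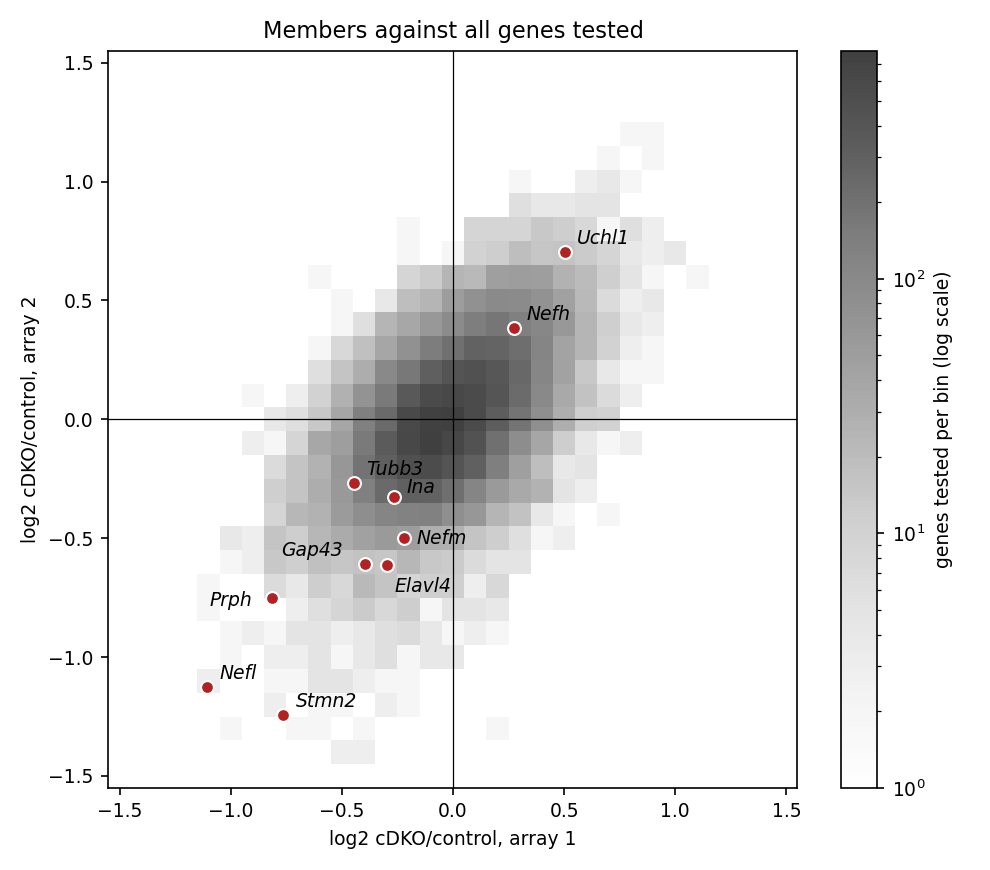
Log2 ratio (mutant over control) on array 2 against that on array 1, with the 10 genes as red points over all genes tested, counted in bins on a log grey scale and shown between about -1.5 and 1.5. 8 of the genes lie in the lower left quadrant and Nefh and Uchl1 in the upper right.

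Across the set, 8 genes lay below 0 on both arrays, as did 36.0% of all genes tested, and 2 lay above 0 on both, as did 30.5%. In 9 of the 10 the mutant and control values did not overlap. Both mutant values were below both control values in 23.6% of all genes tested and above both in 21.6%. In the fit over all genes 5 of the 10 were called, against 3.83% of all genes: Nefl, Stmn2, Prph and Gap43 as lower and Uchl1 as higher. The genes were picked on this contrast, so nothing is read from these shares. The median log2 ratio of the 10 was -0.41, at -0.35 on array 1 and -0.55 on array 2, and the range ran from -1.12 for Nefl to 0.60 for Uchl1. Of the 8 lower genes, 6 were further below 0 on array 2 and 2, Prph and Tubb3, on array 1.

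The repeated spots give the spread between spots of 1 array, which was small beside most of these ratios. The spots of an array share its labelled RNAs, so they do not measure the spread from labelling, dye or RNA preparation. Each probe is printed in 4 spots, and in 9 genes every kept spot of the probe that represents the gene lay on the side of its mean on either array. The exception was Nefm, with 7 of 8 spots, and the second Nefh probe, near background, had spots on both sides of 0. The median SD over the spots of these representing probes was 0.07 on array 1 and 0.05 on array 2 on the log2 scale. For Nefl the spots ran from -1.20 to -1.002 on array 1 and from -1.16 to -1.08 on array 2. For Stmn2 they ran from -0.83 to -0.66 on array 1 and from -1.29 to -1.17 on array 2. The spots of Stmn2 on the 2 arrays thus did not overlap, whereas those of Nefl did.

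**Figure D3:**
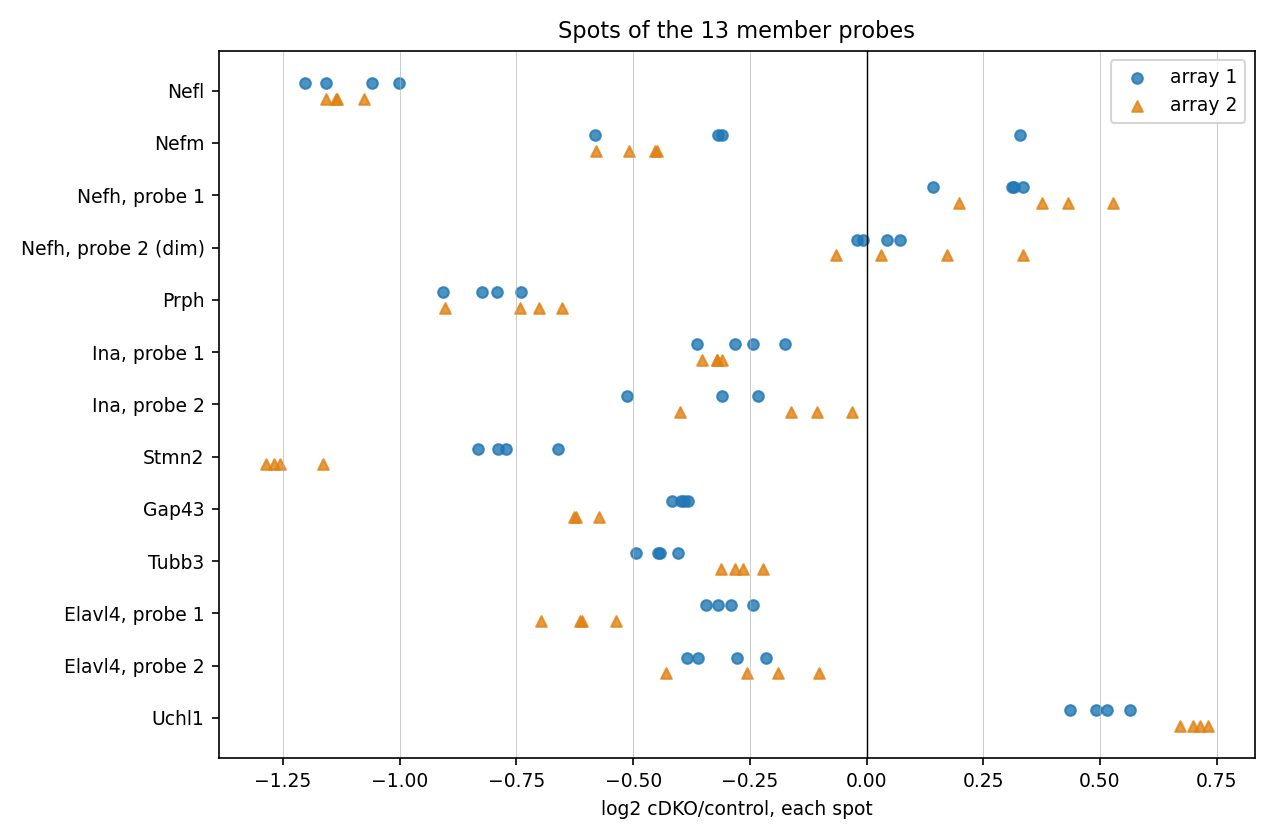
Log2 ratio (mutant over control) of each kept spot of all 13 probes of the 10 genes, circles for array 1 and triangles for array 2. Spots are most spread for Nefm on array 1, with wider spreads also in the second probes of Nefh, Ina and Elavl4 on array 2, and the spots of the arrays do not overlap for Stmn2, Gap43, Tubb3, Uchl1 and the first Elavl4 probe.

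Most of the nearest relatives of the 10 genes did not pass the test. Of 24 relatives 23 were tested, and 2 of them were called lower, with none called higher. Of the 23, 8 lay below 0 on both arrays and 6 above 0 on both. The median log2 ratio of the relatives was -0.07. Both that fell are the neuronal stathmins most akin to Stmn2. Stmn3 read 236 and 309 in Fgfr1/2cDKO RNA, against 414 and 604 in control RNA, and fell, with a log2 value of -0.89 ± 0.11 (limma adjusted p = 0.0129). Stmn4 read 801 and 791 in Fgfr1/2cDKO RNA, against 1148 and 1542 in control RNA, with a log2 ratio of -0.74 ± 0.31 (limma adjusted p = 0.0251). Stmn1, the stathmin of dividing cells, did not pass the test and had a log2 ratio of 0.32 ± 0.05 (limma adjusted p = 0.124).

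Counterparts of the filament and tubulin genes that are not confined to neurons did not pass the test. The mesenchymal filament gene Vim had a log2 ratio of -0.25 ± 0.21, the muscle filament gene Des -0.31 ± 0.37, and the progenitor filament gene Nes -0.20 ± 0.43 (SD, n = 2 arrays). Among tubulins, Tubb2b stood at -0.24 ± 0.12, Tubb2a at 0.01 ± 0.02 and Tubb5 at 0.14 ± 0.37. The Hu relatives Elavl2 and Elavl3, both neuronal, stood at -0.32 ± 0.12 and -0.29 ± 0.26, and the ubiquitous Elavl1 at 0.24 ± 0.44. The hydrolase relatives of Uchl1 lay near 0, Uchl3 at 0.08 ± 0.02 and Uchl5 at -0.07 ± 0.22, and Basp1, a growth cone protein akin to Gap43, stood at 0.16 ± 0.48. Under median centring of the arrays instead of loess, Tubb2a, Tubb5, Elavl1 and Basp1 had means below 0.

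Other genes of axons and synapses were read from 6 lists, termed neuronal lists here. The lists include the relatives, and several of their genes, such as Vim, Des and Elavl1, are not confined to neurons. Of their 145 genes, 128 were tested. Of these, 8 fell and 1 rose, 7.03% of the genes tested in the lists against 3.83% of all genes. Most of these genes, structural ones among them, did not pass the test. Of 30 genes of the axonal cytoskeleton and transport, 2 fell, with a median of -0.02. They were Sncg, gamma-synuclein, at -0.69 ± 0.16 (limma adjusted p = 0.0225), and Dpysl5, a collapsin response mediator protein, at -0.67 ± 0.16 (limma adjusted p = 0.0231). The microtubule-associated genes Map2 and Mapt, named here after their values were seen, stood at -0.08 ± 0.18 and -0.09 ± 0.17. Others of that list, named likewise, lay further from 0, as Map1b at -0.35 ± 0.04 and Dpysl2 at 0.34 ± 0.15 did. Of the 30 genes, 10 lay below 0 on both arrays and 10 above 0 on both. In limma 10 of the 30 had an unadjusted p below 0.05.

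Of 26 genes of vesicles and granules, 3 fell and 1 rose, with a median of -0.18. The granule proteins Scg2 (-0.65 ± 0.17, limma adjusted p = 0.0244), Chgb (-0.51 ± 0.08, limma adjusted p = 0.0423) and Chga (-0.48 ± 0.02, limma adjusted p = 0.0454) fell. Of the 26 genes, 18 lay below 0 on both arrays and 5 above 0 on both. In limma 13 of the 26 had an unadjusted p below 0.05. Syt1, the calcium sensor of synaptic vesicles, rose by 0.52 ± 0.16 (limma adjusted p = 0.0448). It read 1901 and 2500.5 in Fgfr1/2cDKO RNA, against 1433 and 1619 in control RNA, and the groups did not overlap.

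The remaining neuronal lists gave 1 call. Of 17 RNA-binding and transcription factor genes tested, Tlx2, a homeobox gene of neural crest derived neurons, fell, with a mean of -0.60 ± 0.01 (limma adjusted p = 0.0252), and the median was 0.04. Rest, a repressor of neuronal genes in other cells, stood at 0.14 ± 0.10 (limma adjusted p = 0.491), with a mean below 0 under median centring. None of 17 genes of axon growth and adhesion passed by limma, where 6 had an unadjusted p below 0.05, and Nsg2 (0.45 ± 0.12, limma adjusted p = 0.0604) and Ncam1 (0.43 ± 0.04, limma adjusted p = 0.0607) came nearest. None of 15 channel and receptor genes passed by limma, where 0 had an unadjusted p below 0.05. Htr3a and Cacna2d1 came nearest, with limma adjusted p of 0.324 and 0.235. The 8 lower calls and 1 higher call became 0 with the scanner software's own processed signals, 0 with median centring, 0 with the 2 RNAs of an array fitted as separate samples and 2 with the authors' table. At an unadjusted p below 0.05 limma gave 40 genes of these lists as processed here, and 43, 41, 25 and 47 under those alternatives.

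Markers of several kinds of neuron were read beside the 10 genes, with no test of the difference between kinds. Of 12 sympathetic noradrenergic genes, 4 fell and 8 did not pass, with a median of -0.41. Of the 12, 9 lay below 0 on both arrays and 2 above 0 on both. In limma 10 of the 12 had an unadjusted p below 0.05. Dbh and Th, enzymes of noradrenaline synthesis, fell, with means of -0.97 ± 0.01 (limma adjusted p = 0.00981) and -0.65 ± 0.05 (limma adjusted p = 0.0225). Phox2a, a transcription factor of autonomic neurons, fell as well, with a mean of -0.61 ± 0.04 (limma adjusted p = 0.0245). The noradrenaline transporter gene Slc6a2, chosen after its values were seen, stood at -0.02 ± 0.14. The summed intensity of the 12 was 19707 and 23219 in Fgfr1/2cDKO RNA, against 19302 and 20995 in control RNA, on the other side from the median. Such sums follow their brightest probes, here Gata2 at 0.41 and Cyb561 at 0.36, which did not pass the test and are named after their values were seen.

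Of 9 sensory neuron genes tested, 1 fell: Gfra3, the artemin receptor, at -0.55 ± 0.03 (limma adjusted p = 0.0330). The calls of Dbh, Th, Phox2a and Gfra3 were lost with the processed signals, with median centring and with the RNAs fitted as separate samples. None of 5 cholinergic, nitrergic and peptidergic genes tested passed by limma, where 1 had an unadjusted p below 0.05, and their median was -0.10. Gal stood at -0.25 ± 0.06 (limma adjusted p = 0.206) and Slc18a3, the vesicular acetylcholine transporter, at -0.12 ± 0.16 (limma adjusted p = 0.561). Vip and Sst were not well above background in any RNA.

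Of 7 chromaffin genes 5 fell, but 4 of them, Dbh, Th, Chga and Chgb, stand in the other lists as well. The fifth was Cartpt, a neuropeptide gene, with log2 ratios of -0.68 and -1.67 and a mean of -1.17 ± 0.70 (limma adjusted p = 0.0243). Its call was lost with the processed signals, with median centring and with the RNAs fitted as separate samples.

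No glial marker and no neurotrophic gene tested was called lower. Below 0 on both arrays lay 5 of the glial and 4 of the neurotrophic genes tested, and above 0 on both 5 of each. Of 13 Schwann and satellite glia genes tested 0 fell and 1 rose, with a median of -0.05 and 6 at an unadjusted p below 0.05 in limma. The summed intensity of the glial list was 144560 and 168809 in Fgfr1/2cDKO RNA, against 100694 and 125213 in control RNA, on the other side from the median. The gene that rose was Mal, a myelin protein that epithelia also make, at 0.62 ± 0.02 (limma adjusted p = 0.0242). Sox10, the defining glial transcription factor, chosen after its values were seen, read 222 and 253 in Fgfr1/2cDKO RNA, against 239 and 236 in control RNA, and the groups overlapped. Of 13 neurotrophic genes 2 rose, Gdnf by 0.54 ± 0.15 (limma adjusted p = 0.0404) and the sorting receptor Sort1 by 0.48 ± 0.04 (limma adjusted p = 0.0463). The other Sort1 probes did not all share its sign, the lowest standing at -0.17. Averaged over all its tested probes, Sort1 stood at 0.14 (limma adjusted p = 0.439). The calls of Mal, Gdnf and Sort1 were lost with the processed signals, with median centring and with the RNAs fitted as separate samples.

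**Figure D4:**
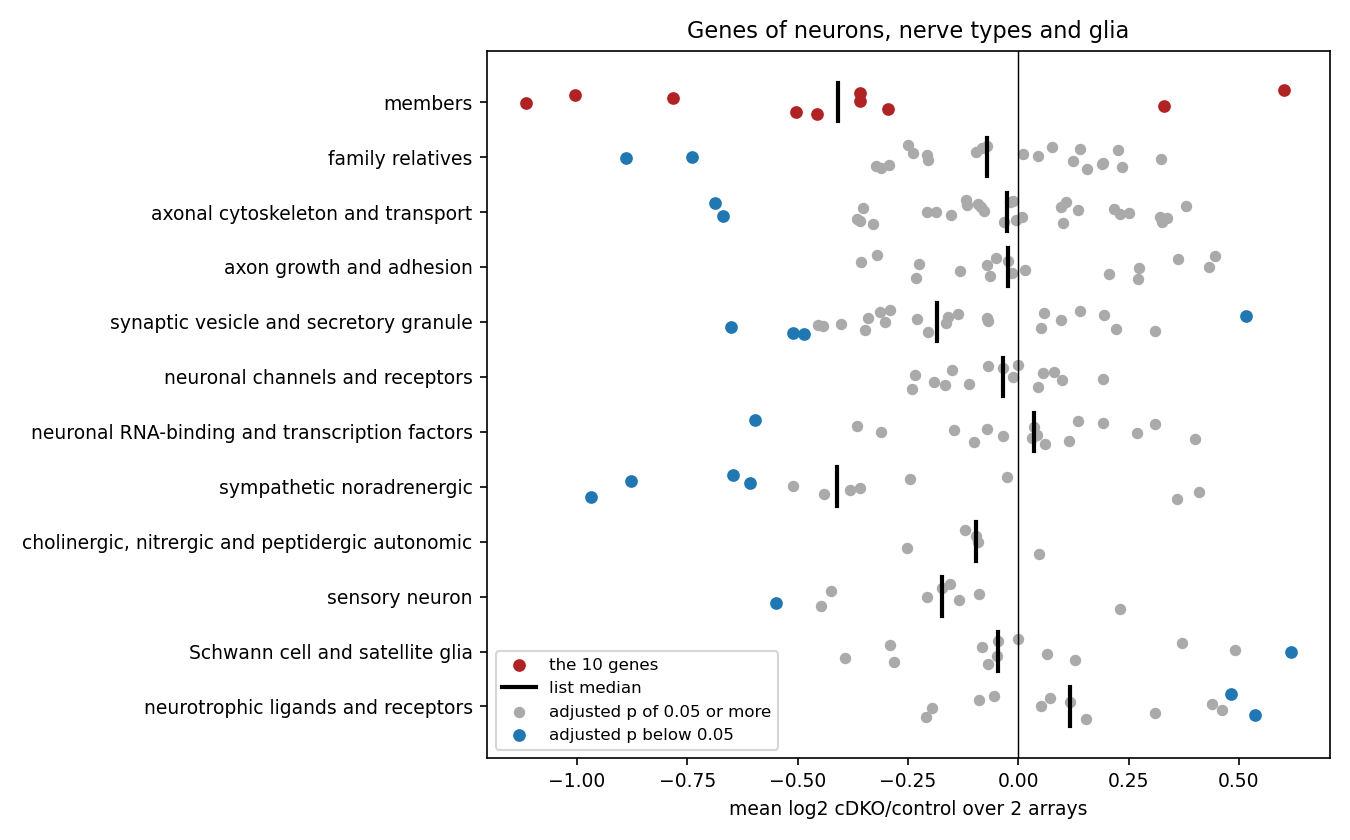
Log2 ratio (mutant over control, mean of 2 arrays) of each tested gene, by list, with a bar at each list's median, blue points for genes with a limma adjusted p below 0.05 and red points for the 10 genes, which were chosen on this contrast. The 6 neuronal lists below the top row have medians between -0.18 and 0.04, and the sympathetic noradrenergic list has -0.41.

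Some markers of cell types other than neurons also differed between the genotypes, which does not tell cell number from RNA per cell. All 7 adipocyte markers tested fell, with a median of -1.90 (-1.15 on array 1 and -2.83 on array 2), and their summed intensity was 76245 and 36379 in Fgfr1/2cDKO RNA, against 127251 and 119225 in control RNA. Of 10 endothelial markers 7 fell, with a median of -0.55 (-0.56 and -0.49 on arrays 1 and 2) and summed intensities of 9612 and 11213 in Fgfr1/2cDKO RNA, against 14086 and 13932 in control RNA. Of 10 macrophage markers 3 fell, with a median of -0.47 (-0.29 on array 1 and -0.72 on array 2) and sums of 104760 and 68863 in Fgfr1/2cDKO RNA, against 128489 and 100749 in control RNA. The adipocyte gene Lep was not well above background in any RNA. Under median centring no gene was called, so the calls of these markers and of the urothelial ones below were lost there.

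In the tissue layers proper, 4 of 10 urothelial markers rose, with a median of 0.45. The summed urothelial intensity was 382846 and 456677 in Fgfr1/2cDKO RNA, against 266465 and 284798 in control RNA. None of 8 smooth muscle markers passed by limma, where 1 had an unadjusted p below 0.05, and their median was 0.04. The part of any of these cell types in the values of the 10 genes, or of genes in the neuronal lists such as Sncg, was not tested.

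The promoters of 5 of the 10 genes, in 8 windows of 250 bases before to 50 after a transcription start, were matched in RefSeq's table for GRCm38.p6. Those of Prph, Tubb3 and Uchl1 are shown, since Prph and Tubb3 were lower and Uchl1 higher in mutant ureters. Capitals mark the motifs searched on both strands: the E-boxes CAGCTG as well as CATCTG, the RE1 element's part CAGCACC with its other part GGACAGC, which REST binds as a whole, the box CCAAT, the box TATAAA plus the GC box GGGCGG. No motif searched overlaps another in the windows printed.
Prph: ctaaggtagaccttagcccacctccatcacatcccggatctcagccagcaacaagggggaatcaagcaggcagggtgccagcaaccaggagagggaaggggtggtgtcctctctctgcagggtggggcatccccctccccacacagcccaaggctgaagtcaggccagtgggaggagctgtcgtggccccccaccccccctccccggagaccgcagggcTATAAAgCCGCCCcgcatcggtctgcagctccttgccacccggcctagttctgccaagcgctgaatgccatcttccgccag
Tubb3: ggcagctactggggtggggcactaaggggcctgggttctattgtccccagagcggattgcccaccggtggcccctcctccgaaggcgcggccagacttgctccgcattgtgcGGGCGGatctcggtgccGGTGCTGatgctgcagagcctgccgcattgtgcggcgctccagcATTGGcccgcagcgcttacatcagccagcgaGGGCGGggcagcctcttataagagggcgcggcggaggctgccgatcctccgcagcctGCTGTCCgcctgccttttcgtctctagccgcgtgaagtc
Uchl1: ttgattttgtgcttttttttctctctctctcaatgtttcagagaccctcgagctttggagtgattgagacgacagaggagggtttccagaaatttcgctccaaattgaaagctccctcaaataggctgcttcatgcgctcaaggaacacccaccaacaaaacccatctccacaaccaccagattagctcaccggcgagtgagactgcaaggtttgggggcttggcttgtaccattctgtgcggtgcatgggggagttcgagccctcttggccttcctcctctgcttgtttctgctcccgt
The windows lie at chr15:99054924-99055223 for Prph, chr8:123411303-123411602 for Tubb3 and chr5:66675871-66676170 for Uchl1, all on the plus strand. The motifs of the Prph window were a TATAAA box with, 1 base after it, a GC box GGGCGG on the other strand, seen here as CCGCCC. The first of these occurred in 13.6% and the second in 35.7% of all 32851 windows in the table. The Tubb3 window held both RE1 parts, seen from the other strand as GGTGCTG at -121 and GCTGTCC at 12 from the start site. They are separate matches that do not adjoin, so a whole RE1 element is not shown. These parts occurred in 7.14% and 6.56% of all windows, in that order. The Tubb3 window also held the box CCAAT, seen as ATTGG from the other strand, with GC boxes besides. The Uchl1 window held none of the motifs, which says only that these letters are not in this window. Its GC content was 50.7%, against 64.7% for Prph, 67.3% for Tubb3 and a median of 52.7% over all windows. E-boxes of the form CAGCTG, present in 16.3% of all windows, stood in windows of Ina and Elavl4, and CATCTG, present in 17.2%, in those of Elavl4. No motif was shared by the windows of all 5 genes.

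The 8 genes nearest to the set's median pair of ratios, by Euclidean distance over the 2 arrays, were Has2, Abhd15, Plscr2, Gmps, Cct6a, Arhgef15, Oat and Prcd, at distances of 0.02 to 0.04 log2 units. They were taken from 16562 named genes well above background in all 4 RNAs, and none is in a neuronal list used here. With 2 arrays, many genes lie close to any pair of ratios.

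The signs of the 10 genes held under every way of processing tried. Under 12 alternatives each, none of the 120 values turned, and 15 moved by more than the SD between arrays. Many of these values could not have turned. The other threshold, the filter changes and the RNAs fitted as separate samples left the ratios of these genes as they were. With an array left out, the value is the ratio of the other array, whose sign is given above. The log2 ratio of Nefl stayed between -1.28 and -1.11, that of Stmn2 between -1.24 and -0.76, and that of Prph between -0.96 and -0.75. Uchl1 stayed between 0.41 and 0.70 and Nefh between 0.28 and 0.55. Whether a gene was called did depend on the processing: 5 of the 10 were called as above, 3 with the authors' table and 0 with the scanner software's processed signals, with median centring or with the RNAs fitted as separate samples.

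**Figure D5:**
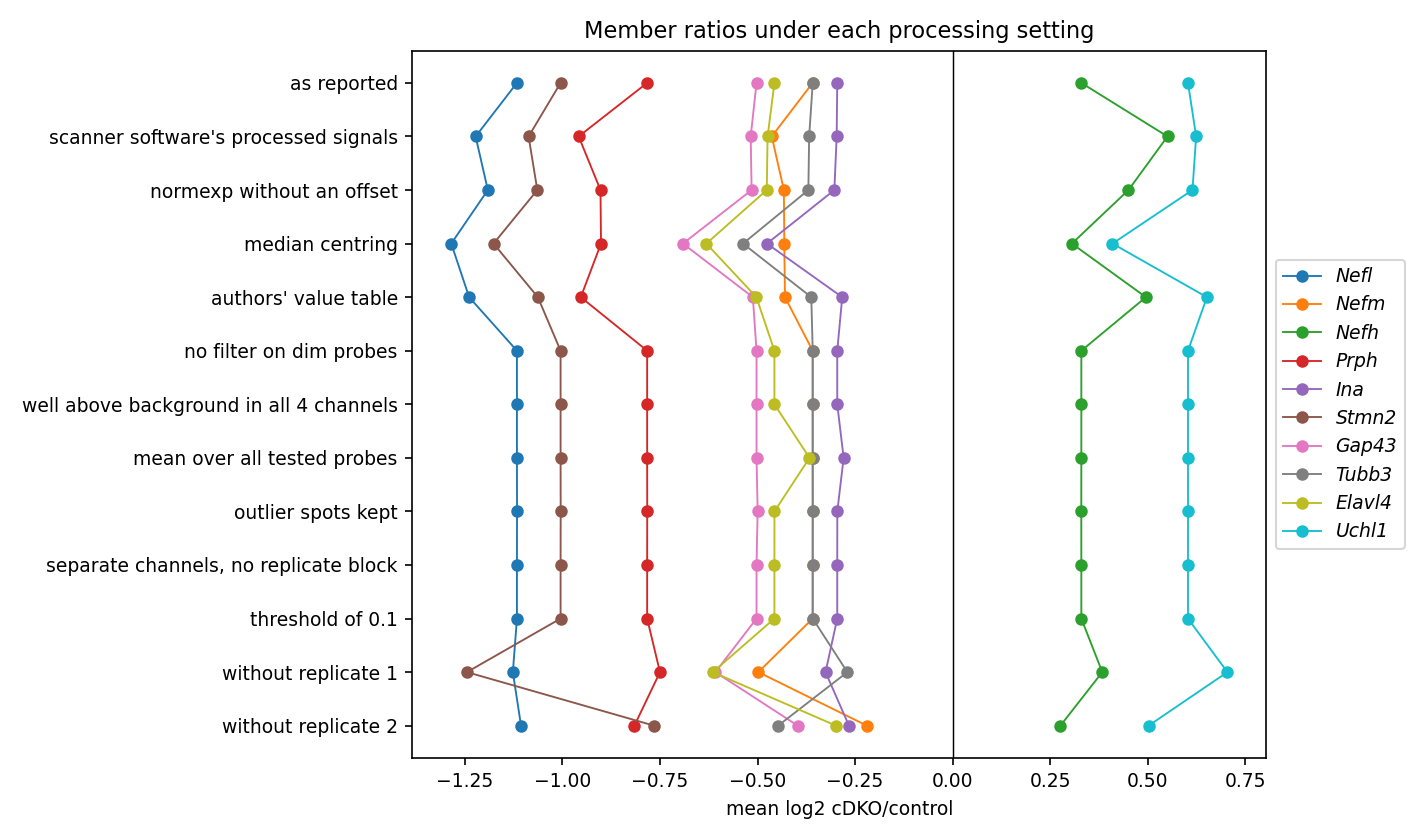
Log2 ratio (mutant over control) of each of the 10 genes under the processing used and under the 12 alternatives. Every value keeps its side of 0, and Stmn2 has the widest range.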

How the data were processed

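Intensity values, the mean signal of each spot and the median background around it, were deposited as scanner output. The submitters' processing notes name Agilent Feature Extraction 10.7.3.1. Its processed intensity values were background-subtracted and dye-normalised, and its log10 ratios, red over green, were taken from those, per the file headers. The authors' deposited table gives 1 score for each probe, which is a fold change with a sign; how it averages spots is not stated. It correlated at r = 0.90 and 0.92 with the mutant over control ratios of arrays 1 and 2, so that is its direction. Its median was 1 on both arrays, 8097 and 9100 of 39429 probes stood at exactly 1, and its centring is unknown.

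Values were computed with limma 3.58.1 in R 4.3.3: normexp background correction with an offset of 50, loess within each array with outlier spots (3.17% and 3.65% of gene spots) and control spots left out, and the mean of 4 spots per probe. The dye labels set the direction, mutant over control. Levels in each RNA came from the same values after Aquantile normalisation between arrays. A probe was tested if, in either genotype, over 50% of its spots were well above background on each array (28915 probes), and the brightest tested probe represented a gene. Ratios were tested against 0, two-sided, with lmFit and eBayes and Benjamini-Hochberg adjustment over 21981 genes, after the code had been tested on simulated data. The arrays carry 1 residual degree of freedom, and their number limits the precision. Each ratio compares RNAs of the same array, so the array is the block. With dyes left as Cy5 over Cy3, 0 genes passed in limma, where 77 reached an unadjusted p below 0.05. No gene spot was saturated.

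The 10 genes and all gene lists were chosen with earlier results of these data known. Named are all 10 genes, fixed family counterparts and Rest, per list and direction up to 4 called genes with the smallest p, or the 2 smallest p where none was called, the nearest patterns, and Fgfr1, Fgfr2 and Tbx18. Of 39429 probes, 28328 were named by accession, 3400 by symbol and 243 by synonym through RefSeq, and 7458 kept the file's name. Protein sequences were not used here, and 1 gene that the rule would name is not reported here. Alternatives covered the signals, the offset, the centring, the filter, the probe rule, outlier spots, the block, the threshold and each array left out.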

Additional observations from a re-analysis of the deposited data

Results flagged for a closer look

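Of 23 tested relatives of the 10 genes, 9 had log2 ratios (mutant over control) of opposite sign on array 2, labelled female, and array 1, labelled male, 6 of them among the relatives named in the report. The difference between the arrays was not tested, and sex label, replicate and dye orientation cannot be told apart. Array 2 stood above array 1 by 0.61 for the filament gene Nes (0.10 on array 2 and -0.51 on array 1), by 0.53 for the tubulin Tubb5 (0.40 and -0.12) and by 0.62 for the Hu gene Elavl1 (0.54 and -0.07). Array 2 minus array 1 was -0.31 for the hydrolase Uchl5 (-0.23 on array 2 and 0.09 on array 1) and -0.67 for the growth cone gene Basp1 (-0.18 and 0.49). For Tubb2a the difference was -0.026, with both values close to 0. The other 3, named after their values were seen, were Marcksl1 (0.52 on array 2 and -0.27 on array 1), Tubb4a (-0.20 and 0.0097) and Tubb6 (0.019 and -0.18). None of these 9 genes was called, and none of the 10 axonal genes differed in sign between the arrays.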

How the results depend on the processing

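With 2 arrays and 1 residual degree of freedom, calls rest on a spread borrowed from all genes, and leaving out an array leaves a value with no test. Of 12 alternatives, several of which leave the ratios as they are, none changed the 8 of the 10 genes below 0 on both arrays. Their median of -0.41 was -0.58 under median centring, which moved the median of all genes to -0.14, so that the 10 lay 0.44 below it, against 0.39 as reported. It lay between -0.55 and -0.35 with an array left out. The 842 calls over all genes became 10 with the scanner software's processed signals and 0 with median centring. They became 140 with the authors' table and 1915 at a threshold of 0.1. In that order, the 9 calls in the 6 neuronal lists became 0, 0, 2 and 15. The ratio within an array is itself the paired comparison. With no replicate block, the RNAs fitted as separate samples, limma called 3 genes, 0 of them in the neuronal lists. At an unadjusted p below 0.05 limma gave 4938 genes as reported, 4609 with processed signals, 5567 with median centring and 2393 with no block. Other named genes had 491 values under alternatives, of which 400 kept sign and side of the threshold, 73 lost the call, 5 gained it and 13 changed sign. Those 13 were Tubb2a (-0.0032) with processed signals, under median centring Tubb2a (-0.25), Tubb5 (-0.18), Elavl1 (-0.053), Basp1 (-0.030), Rest (-0.068) and Tbx18 (-0.020), and 6 with an array left out. With either array alone, Nes lay between -0.51 and 0.099, Tubb2a between -0.0026 and 0.024, Tubb5 between -0.12 and 0.40, Elavl1 between -0.074 and 0.54, Uchl5 between -0.23 and 0.085 and Basp1 between -0.18 and 0.49. The cause of these moves was not tested.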
